A study of Homo sapiens with 12 samples.

Results

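Of the 18128 dSpCas9 eCLIP peaks in the 4 lists analysed, 395 (2.18%) overlapped no exon of any protein-coding gene on their own strand and are described here. Membership was set by annotation, with GENCODE 44 and all transcripts, except that 4 highly enriched tRNA loci were left out. Another 17693 peaks lay on exons of protein-coding genes, and 40 peaks outside such exons were left out because they lay at these loci. Overlapping or touching peaks of the 4 lists on one strand were joined into 155 loci. Of these, 78 loci had a peak in 1 list, 54 in 2 lists, 19 in 3 lists and 4 in all 4 lists.

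The study mapped RNA bound by catalytically inactive SpCas9 (dSpCas9) without guide RNA in HEK 293T cells, a human embryonic kidney line. dSpCas9 carried a V5 tag or a 3xFLAG tag, had no nuclear localization signal, and was expressed in separate cells. Each protein had 2 replicate immunoprecipitations (IPs) and 2 size-matched inputs, and cells with the empty vector gave 2 V5 IPs and 2 FLAG IPs, 12 libraries in all. Every library came from cells crosslinked with UV at 400 mJ/cm2 and from membrane cut from 115 kDa upward. Each IP was compared with its size-matched input and with the empty vector IP of the same antibody. The lists over input held 6605 peaks for V5-dSpCas9 and 6554 for 3xFLAG-dSpCas9, and the lists over empty vector held 3005 and 1964. Both lists of an antibody rest on the same 2 IP libraries. Each peak has 1 log2 enrichment and 1 -log10 p for both replicates together, so no error between replicates can be given, and the read depth is unknown. The lists hold only peaks with a log2 enrichment of at least 3 (8-fold) and a -log10 p of at least 3, and -log10 p stops at 400.

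Introns are removed from pre-mRNA in the nucleus, and mRNA exons make up most of the RNA polymerase II transcript found in the cytoplasm. RNA polymerase III makes some of the short, abundant and strongly folded noncoding RNAs. Among these are tRNA, 5S rRNA, 7SL RNA of the signal recognition particle, 7SK RNA, U6 snRNA, Y RNA and vault RNA. A tRNA gene is transcribed with a short leader and a short trailer. Both are cut off, and the 3′ terminal CCA, which human tRNA genes as a rule do not encode, is then added by an enzyme. Many tRNA, 5S and 7SL genes, their pseudogenes and pieces of rRNA lie inside introns of other genes.

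Of the 10 highest loci, 7 held the 3′ end of a tRNA gene with CCA added, which their annotation as introns does not show. Several different tRNAs were matched, and 6 of the 7 loci matched without a mismatch. The sequences at such loci are therefore shown first. Each is the reference sequence of a whole locus, read 5′ to 3′ on the strand of its peaks, build GRCh38. Capitals mark the stretch identical to the 3′ end of a tRNA gene with CCA added to it. The search was chosen after the values were seen. It used the last 15 nt of each RefSeq tRNA gene (GRCh38.p14) with CCA attached, 18 nt in all, and allowed up to 2 mismatches before the CCA.
ENSG00000254404 intron: ctcgAAGTCCCTGTTCAGGCGCCAc
ENSG00000269237 intron: gacagtctctgCTCCTGGCTGGCTCGCCAa
ENSG00000269535 intron: attctGTCCCTGTTCAGGCGCCAc
TRIM52-AS1 intron: cactcTTCCCGGCCCATGCACCAgggag
SYCP2L intron: AGCCCACCCAGGGACGCCAaaaacaa
THEM7P intron: cacAGTCCCACCTGGGGTACCAg
CACNA2D4 intron: tGCCTCAGAGAGGGCACCAgggccatc
ENSG00000266450 intron: cagATCCCACTCCTGACACCAttaaa
In all, 9 loci matched without a mismatch, over 18 to 20 nt up to and including the CCA, and the sequence of 1 of them, in an intron of ENSG00000275016, is not printed. Loci in introns of PRKCA and PSEN2 matched with 2 mismatches, which made 11 of 155 loci (7.1%), all of them in introns and none on a RefSeq tRNA gene. Among 8467 loci joined in the same way from peaks on protein-coding exons, 3 (0.0354%) held such an end and 0 held it without a mismatch. Counted by single peaks, 6 of 395 members and 0.0552% of all peaks held a whole end, since most of these loci were deposited as several short pieces. Of 390 RefSeq tRNA genes whose strand could be read from their B box (GTTCNANNC), 2 are followed by CCA in the genome.

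The highest log2 enrichments of all members were at 3 of these loci. Peaks at the 4 tRNA loci left out reached higher over input, up to 8.56 with V5 and 9.52 with FLAG. The intron of the lncRNA gene ENSG00000254404 at chr11:62252198-62252222 had a log2 enrichment over input of 7.74 with V5 and 9.40 with FLAG. Its 20 capital letters are the 3′ end of lysine tRNA genes with the anticodon TTT, such as TRK-TTT2-1. The locus also had a peak over the FLAG empty vector at 3.24, and none over the V5 empty vector. An intron of the protein-coding gene ENSG00000269237 at chr19:21440634-21440663 reached 8.03 with V5 and 8.48 with FLAG, and 3.23 over the V5 empty vector. Its stretch is the end of arginine tRNA with the anticodon ACG. The intron of ENSG00000275016 followed with 7.98 and 8.20 and had no peak over either empty vector. These 3 loci led the members of both input lists, in a different order in each.

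The intron of ENSG00000269535 at chr19:52331908-52331931 carries the same lysine tRNA end as the first locus and had 6.30 with V5, 7.13 with FLAG and 3.62 over the FLAG empty vector. TRIM52-AS1 at chr5:181265664-181265691, with the end of glycine tRNA, had 6.69 and 6.47. SYCP2L, whose intron at chr6:10887603-10887628 holds the end of asparagine tRNA, had 5.94 and 7.15. The PRKCA intron at chr17:66755804-66755878 had 6.87 and 6.25 and a V5 empty vector peak at 3.61. Of the 10 loci with the highest mean of V5 and FLAG, all 10 were in introns and 7 held a tRNA end with CCA. The 23 nt of the THEM7P locus also matched a RefSeq snoRNA gene. Since its 18 nt end occurred once in the genome, that gene lies at the locus itself, on 1 strand or the other. THEM7P (5.16), CACNA2D4 (5.31), ENSG00000266450 (4.66) and PSEN2 (3.77) had peaks with FLAG only. Over the 7 loci in both input lists the V5 values ran from 5.94 to 8.03 with a median of 6.87, and over all 11 the FLAG values ran from 3.77 to 9.40 with a median of 6.47. The matched 18 nt occurred once in the genome at TRIM52-AS1, SYCP2L and THEM7P, and from 2 to 20 times at the other 6 exact loci. Reads that end in such a stretch cannot be assigned to a locus with certainty where it is repeated or where a mature tRNA holds the same letters.

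**Figure D1:**
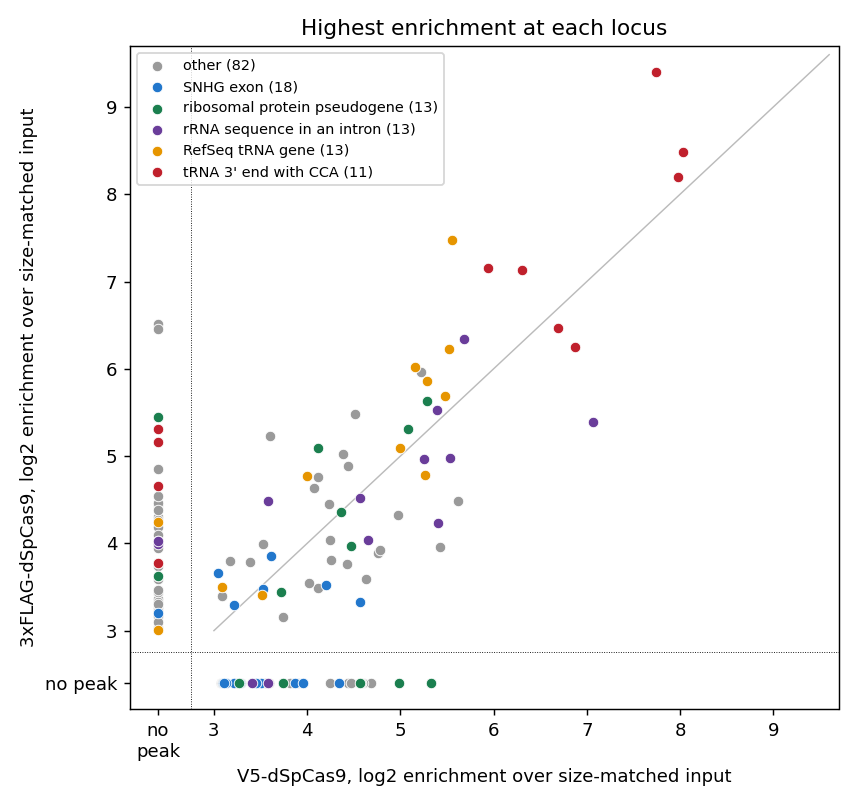
Highest log2 enrichment over size-matched input at each locus with a peak in either input list, V5-dSpCas9 (x axis) against 3xFLAG-dSpCas9 (y axis), coloured by what the locus holds, with the number of loci plotted in parentheses. Points beyond the dotted lines have a peak in one list only, and the grey diagonal marks equal values. The upper right corner holds loci with a tRNA 3′ end and CCA, up to 8.03 with V5 and 9.40 with FLAG.

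Members lay higher than the other peaks in both input lists. Their median log2 enrichment was 4.38 with V5 (158 peaks) and 4.42 with FLAG (165 peaks), where peaks on protein-coding exons had medians of 3.60 and 3.61. A log2 of at least 5 (32-fold) was reached by 48 of the 158 V5 members (30.4%) and by 4.48% of all V5 peaks. With FLAG it was reached by 57 of 165 members (34.5%) and by 5.8% of all peaks. The median differed by class. Peaks in introns of noncoding genes had medians of 5.54 with V5 and 6.47 with FLAG, and those in introns of coding genes 4.89 and 4.83. Peaks on lncRNA exons had 3.74 and 3.57, close to the medians over protein-coding exons. Over empty vector the medians of all members were 3.23 with V5 and 3.62 with FLAG, against 3.62 and 3.59 over protein-coding exons, so the difference seen over input was not seen there.

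The V5 and FLAG experiments used separate cells and libraries. Of the V5 members, 104 of 158 (65.8%, 95% Wilson interval 58.1 to 72.8%) overlapped a FLAG peak over input, and 54.0% of all V5 peaks did. Of the FLAG members, 109 of 165 (66.1%, 58.5 to 72.8%) overlapped a V5 peak, and 55.8% of all FLAG peaks did. These intervals cover the counting of peaks only, and pieces of one locus are not independent. Across the 62 loci in both input lists the highest values had a Pearson r of 0.83 and a Spearman rho of 0.76, given as a description, and both scales are cut at 3. FLAG was higher than V5 at 34 of these loci, with a median difference (FLAG minus V5) of 0.17. Another 42 loci were in the V5 list only of the 2 input lists, 46 in the FLAG list only, and 5 in neither. Members stood at the -log10 p ceiling in 12 of 158 cases with V5 and 25 of 165 with FLAG, where 4.13% and 5.26% of all peaks did.

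By annotation, 115 of the 395 peaks lay in introns of protein-coding genes (29.1%) and 51 in introns of noncoding genes (12.9%). Exons of lncRNA genes held 107 peaks (27.1%), pseudogene exons 64 (16.2%), exons of small RNA genes 42 (10.6%) and exons of other noncoding genes 7. The last 9 peaks were intergenic. Noncoding exons of any kind therefore held 220 peaks (55.7%). The lists over empty vector had another makeup, with 28 of 35 V5 members and 27 of 37 FLAG members on noncoding exons, against 88 of 158 and 77 of 165 over input.

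**Figure D2:**
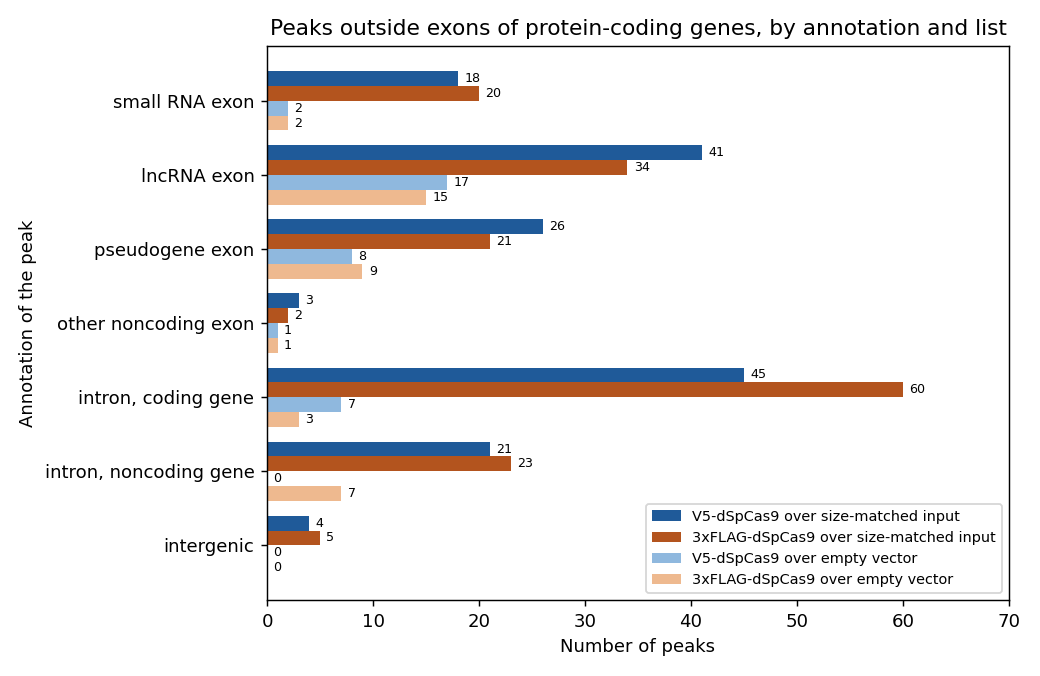
Number of peaks outside protein-coding exons in each annotation class (y axis), with 1 bar for each of the 4 lists and the count printed at its end. Introns of coding genes held 45 and 60 peaks over input and 7 and 3 over empty vector, whereas lncRNA exons held 41 and 34 over input and 17 and 15 over empty vector.

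Peaks over input were set beside the empty vector list of the same antibody. With V5, 28 of 158 members (17.7%, 95% Wilson interval 12.6 to 24.4%) overlapped an empty vector peak, and 36.0% of all V5 peaks did. With FLAG, 37 of 165 (22.4%, 16.7 to 29.4%) did, and 27.9% of all FLAG peaks. Among FLAG members the share was 14 of 34 on lncRNA exons and 9 of 21 on pseudogene exons, but 2 of 60 in introns of coding genes. With V5 it was 12 of 41, 7 of 26 and 8 of 45 in the same order. None of the 21 V5 peaks in introns of noncoding genes overlapped one, while 7 of the 23 FLAG peaks did. In the opposite direction, 29 of 35 V5 members over empty vector (82.9%) overlapped a V5 peak over input, and 76.6% of all peaks of that list did. For FLAG it was 34 of 37 (91.9%), beside 90.5% of all.

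**Figure D3:**
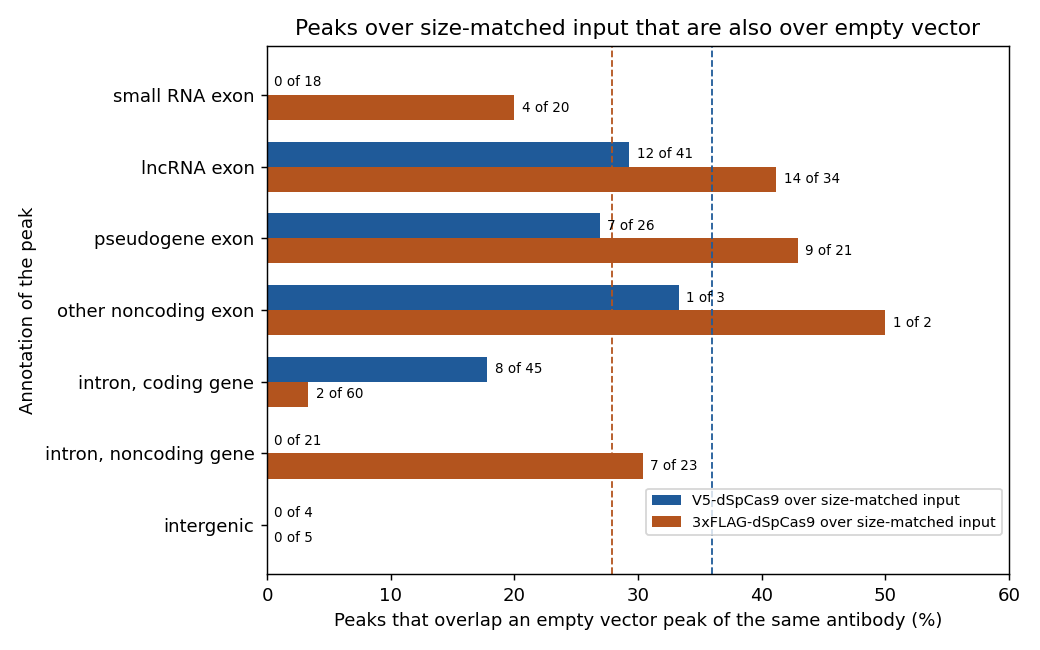
Share of peaks over size-matched input (x axis, percent) that overlap an empty vector peak of the same antibody, by annotation class, with counts at the bars. Dashed lines give the share over all peaks of the list, 36.0% for V5 (blue) and 27.9% for FLAG (orange). Intergenic peaks and V5 peaks on small RNA exons had no overlap.

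Genes for tRNA are not part of the GENCODE exons used, and 13 loci lay on RefSeq tRNA genes other than the 4 left out. Of these, 10 were in introns of coding genes or of the lncRNA gene B4GAT1-DT, 1 was on an exon of LIMD1-AS1 and 2 were intergenic. The sequences of 6 of them are shown, with the bases inside the tRNA gene in capitals and bases of the leader or trailer in lower case.
MORF4L1 intron, TRK-CTT1-2: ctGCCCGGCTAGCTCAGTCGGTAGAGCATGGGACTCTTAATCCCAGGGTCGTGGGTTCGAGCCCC
AIM2 intron, TRR-TCT4-1: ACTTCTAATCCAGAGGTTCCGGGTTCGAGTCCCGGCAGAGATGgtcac
FMC1 intron, TRR-CCT4-1: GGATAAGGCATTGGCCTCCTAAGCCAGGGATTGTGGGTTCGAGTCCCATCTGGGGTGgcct
LIMD1-AS1 exon, TRR-ACG2-1: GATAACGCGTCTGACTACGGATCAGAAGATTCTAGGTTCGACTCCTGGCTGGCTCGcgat
B4GAT1-DT intron, TRS-GCT3-1: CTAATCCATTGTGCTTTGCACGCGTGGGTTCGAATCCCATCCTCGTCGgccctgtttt
intergenic, TRS-TGA2-1: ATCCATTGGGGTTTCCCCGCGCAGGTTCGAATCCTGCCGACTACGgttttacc
In the 12 tRNA genes whose strand could be read, the peaks were on the strand of the tRNA. Of the 13 loci, 11 ran past the 3′ end of the gene, by 4 to 11 nt, and 10 began inside it. The 2 that ended inside the gene were MORF4L1 and ARMH4, both lysine tRNA genes with the anticodon CTT.

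MORF4L1, at chr15:78860560-78860624, had the highest mean of this group, with 5.55 over V5 input, 7.47 over FLAG input and 3.06 over the V5 empty vector, and entered the 10 highest loci. AIM2, at chr1:159141606-159141653, had 5.52 and 6.23 over input and 3.13 over the V5 empty vector. LIMD1-AS1, at chr3:45688995-45689054, had 5.48 and 5.69 over input and 3.34 over the V5 empty vector, and was the highest lncRNA exon locus. FMC1 (5.16 and 6.02), both loci in KCTD2 (5.29 and 5.86, and 3.99 and 4.78), B4GAT1-DT (5.00 and 5.10) and the intergenic locus at chr6:27545726-27545778 (5.27 and 4.79) were in both input lists and in neither empty vector list. None of the 13 loci had a peak over the FLAG empty vector, where 25 of all 155 loci had one. ARMH4 (3.09 and 3.50) and SLC47A1 (3.52 and 3.41) were lower in both lists, and OR1F1 (3.01), AGBL5 (3.78) and TRS-TGA3-1 (4.25) had FLAG peaks only. Arginine tRNA genes made up 5 of the 13 and serine and lysine tRNA genes 3 each. Their shares among all 443 RefSeq tRNA genes were not counted, so no preference can be read from this. Only 25 nt stretches inside a deposited peak were counted for uniqueness. None of them was unique in the genome at MORF4L1, LIMD1-AS1, AGBL5, both KCTD2 loci and the locus on TRS-TGA2-1. Reads there cannot be assigned to 1 tRNA gene with certainty. At AIM2, B4GAT1-DT and TRS-TGA3-1 every counted stretch was unique, and other loci lay between or were too short. Over the whole locus on TRS-TGA3-1, 56.25% of the 25 nt stretches were also in CTC1 mRNA. That locus was therefore not unique throughout.

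**Figure D4:**
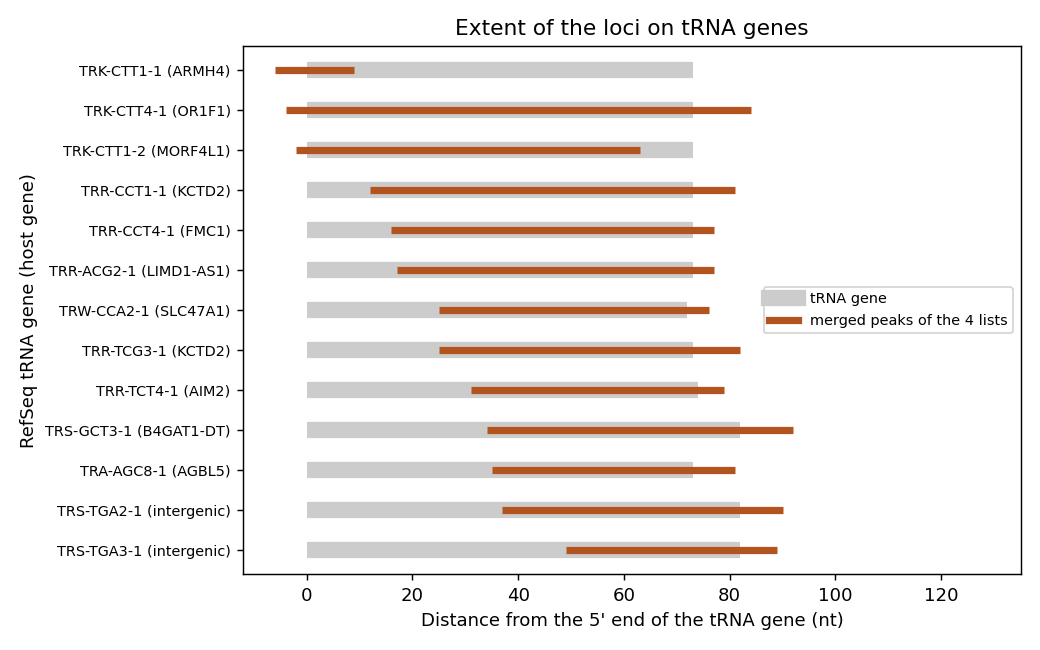
Extent of the joined peaks (orange) along each RefSeq tRNA gene (grey), in nt from the 5′ end of the tRNA (x axis), with the host gene in parentheses. In 11 of 13 genes the peaks run past the 3′ end, and 10 begin inside the gene.

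Pieces of rRNA gave a further group. A stretch of at least 20 nt identical, on either strand, to a RefSeq tRNA, rRNA, 7SL, 7SK, snRNA, snoRNA, vault, Y or miRNA gene was found in 93 of 395 members, and in 1.11% of all peaks. That was 23.5% of members, and 29 of the 93 lay on exons of small RNA genes, which the membership rule itself places among the members. Of the 61 intronic and intergenic loci, 32 held such a stretch and 40 held one or a tRNA end with CCA. Among them, 13 matched 18S, 28S or 5S rRNA or the spacers of the 45S precursor, 3 of these inside RefSeq copies of the rRNA gene on chromosome 21. Capitals mark the rRNA stretch in 2 examples from introns of coding genes, 18S in PDE3A and 28S in RYR2.
PDE3A intron: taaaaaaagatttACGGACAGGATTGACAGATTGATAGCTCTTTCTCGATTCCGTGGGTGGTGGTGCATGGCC
RYR2 intron: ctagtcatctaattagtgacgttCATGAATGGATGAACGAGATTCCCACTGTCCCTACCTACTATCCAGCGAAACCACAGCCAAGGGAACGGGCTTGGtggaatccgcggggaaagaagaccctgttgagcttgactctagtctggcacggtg
The highest of the group was ENSG00000280441, an lncRNA gene over an rRNA gene copy, at chr21:8397608-8397760, with 7.06 for V5 and 5.39 for FLAG and a match over its whole length of 153 nt. PDE3A, a phosphodiesterase gene, had 5.69 and 6.34 at chr12:20551411-20551483. Both were among the 10 highest loci. The lncRNA gene ENSG00000278996, over another rRNA gene copy, had 2 loci, with 3.58 and 4.49 at the first and 4.57 and 4.52 at the other. RYR2, AAMDC, HFM1, PID1 and SLCO5A1 carried 28S stretches of 43 to 75 nt and had V5 values of 4.65 to 5.53 and FLAG values of 4.03 to 5.53. ANKRD30BL held 18S stretches at 2 loci, seen with FLAG only (3.99 and 4.03), and FAM234B (3.41) and COL22A1 (3.58) held 5S stretches, seen with V5 only. None of the 13 rRNA loci in introns had an empty vector peak, where 42 of all 155 loci had one. Introns of CLASP1, ERGIC1, LINC01344 and MYO9A shared 21 to 32 nt with 7SL RNA, a length that Alu repeats, which derive from 7SL, can also give.

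The loci in coding introns were spread over 37 genes, and 43 loci had a median distance of 1695 nt to the nearest exon of a coding gene on the same strand. None of the 115 peaks adjoined an exon, 5 were 1 to 50 nt away, 31 were 51 to 500 nt away and 79 were farther. In 32 of the 115 cases the host gene also had a peak on one of its exons in the same list. By locus it was 19 of 43. Counted by genes and not by loci, 3623 of all 20046 annotated coding genes, expressed or not, had an exon peak in at least 1 list. Of the intronic and intergenic loci, 21 held neither a shared stretch nor a tRNA end. Among them, the ARMH4 locus of 15 nt and a pair of SIN3B loci of 11 and 5 nt are too short for the search of shared stretches. The SIN3B loci were the highest of the 21, with 6.51 and 6.45 for FLAG and no V5 peak. The highest seen with both tags was a second intronic locus of PID1, with 5.22 for V5 and 5.96 for FLAG. Others were nearer the threshold, among them CAPN2 (3.43), COG8 (3.17) and CYREN (3.63) with FLAG and GNG4 (3.07) and ZXDC (3.54) with V5.

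Annotated small RNA genes held 42 peaks at 21 loci in 19 genes. RN7SL2, which encodes 7SL RNA, had 2 loci in both input lists, with 5.42 and 3.96 at the first and 4.76 and 3.89 at the other for V5 and FLAG. The first had the highest value of any small RNA locus. The 7SK pseudogene RN7SKP71 had 4.12 and 4.76, and RN7SKP79 had 3.74 with FLAG only. A locus was found on 6 pseudogenes of 5S rRNA. RNA5SP429 (4.23 and 4.46) and RNA5SP216 (4.12 and 3.49) were seen with both tags, RNA5SP370 (3.59) and RNA5SP145 (3.49) with V5, and RNA5SP481 (4.46) and RNA5SP202 (3.44) with FLAG. RNVU1-1, a variant U1 snRNA gene, had 4.68 and the U6 copy RNU6-4P had 3.24, both with V5 only. The mitochondrial tRNA genes MT-TP (3.53 and 4.00) and MT-TC (4.38 with FLAG) and 2 Y RNA copies (3.46 and 3.33 with FLAG) completed the list with VTRNA1-2 and 3 miRNA genes. RN7SL1, RN7SK, RMRP, RPPH1, TERC, RNY1, RNY3 and RNY4 had no member peak. Of the 25-mers inside a deposited peak, 4.88% were unique in the genome at the first RN7SL2 locus and 2.94% at RNU6-4P. None was unique at RNA5SP370, RNA5SP481 and RNA5SP216, and all were at RNA5SP202. RN7SKP71 shared 53 nt with 7SK RNA. Reads from a repeated stretch cannot be assigned to 1 copy with certainty, so a missing peak does not show that RN7SL1 or RN7SK was unbound.

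VTRNA1-2, a vault RNA gene at chr5:140718961-140719011, was the 1 small RNA locus of 21 with an empty vector peak. Its log2 enrichment was 4.54 over the FLAG input, 3.45 over the V5 empty vector and 3.36 over the FLAG empty vector, and the V5 input list had no peak there. Its -log10 p reached the ceiling of 400 in all 3 lists. The loci of the 3 miRNA genes were each seen with 1 tag, so no value repeats between V5 and FLAG. MIR222 had 4.85 with FLAG, and its peak covered 61 of the 110 nt of the hairpin, including both mature miRNAs. MIR92A1 had 3.90 with V5 and 51 of 78 nt covered, with 19 nt of the 5p and 18 nt of the 3p arm. MIR1229 had 4.58 with V5 at 2 neighbouring loci of 17 and 26 nt. The mature sequences (RefSeq, GRCh38.p14) are given with the seed, bases 2 to 8, in capitals, and no seed is shared between the 3 genes.
hsa-miR-222-5p: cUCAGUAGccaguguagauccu
hsa-miR-222-3p: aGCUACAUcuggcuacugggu
hsa-miR-92a-1-5p: aGGUUGGGaucgguugcaaugcu
hsa-miR-92a-3p: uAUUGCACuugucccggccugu
hsa-miR-1229-5p: gUGGGUAGgguuugggggagagcg
hsa-miR-1229-3p: cUCUCACCacugcccucccacag

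Many pseudogenes are copies of mRNA inserted into the genome, and of the 25 pseudogene loci 13, in 10 genes, had the name of a ribosomal protein gene. Of 24 loci long enough to hold a 25-mer, 23 shared at least 1 with the spliced mRNA of a protein-coding gene, and in 13 every 25-mer was shared. At all 23 loci that mRNA had an exon peak in at least 1 list. Several of these loci shared the same mRNA, such as RPL13A or EEF1G. Of all 20046 annotated coding genes, expressed or not, 3623 had an exon peak. That is a count of genes and not of loci, and it was not matched for expression, so the shares cannot be compared directly. Reads from a shared stretch cannot be told apart from reads of the mRNA, so the values are uncertain as values of the pseudogene. The other 10 loci shared from 42.2% of their 25-mers (RPL13AP23) to 95.1% (RPS28P4). One locus, on CENPBD1P, shared no 25-mer with a coding mRNA, and every 25-mer inside its deposited peaks was unique in the genome. It had 4.18 over FLAG input and 3.96 over the FLAG empty vector. Both pseudogene loci found in all 4 lists are shown in full. Capitals mark bases in 25-mers shared with the mRNA, of RPL14 in the first and of EEF1G in the second, and they cover both loci completely.
RPL14P1: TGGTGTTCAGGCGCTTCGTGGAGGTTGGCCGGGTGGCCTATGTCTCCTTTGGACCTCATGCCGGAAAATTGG
ENSG00000283041: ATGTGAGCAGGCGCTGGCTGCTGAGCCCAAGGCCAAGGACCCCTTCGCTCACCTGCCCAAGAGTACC
RPL14P1, at chr12:62965326-62965397, had 5.29 and 5.63 over V5 and FLAG input and 4.63 and 4.13 over the empty vectors. The highest exon peaks of RPL14, which encodes a protein of the large ribosomal subunit, were lower in the 3 lists that had one, at 4.35, 4.13 and 4.02 over V5 input, FLAG input and V5 empty vector. ENSG00000283041, at chr7:133035060-133035126, had 5.62, 4.48, 4.44 and 3.80 in the order of V5 input, FLAG input, V5 empty vector and FLAG empty vector. EEF1G, a subunit of translation elongation factor 1, had 4.77, 5.45, 5.53 and 4.89 at its highest exon peaks, above the pseudogene in all lists but the first.

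The other pseudogene loci were mostly seen in 1 or 2 lists. RPL8P3 had 5.33 over V5 input and 4.43 over V5 empty vector, where RPL8 mRNA reached 5.55 and 6.13. RPL13AP5 had 3 loci, of which 1 had 4.11 and 5.10 over the inputs and 4.75 over the FLAG empty vector, the second highest member of that list. RPLP0P6 reached 5.08 and 5.31 over the inputs and 4.46 over the FLAG empty vector. RPS28P7 had 5.44 with FLAG and 3.73 over its empty vector. Of the 13 ribosomal protein loci, 6 had an empty vector peak, where 8 of 25 pseudogene loci and 42 of all 155 loci did. Copies of other mRNA, UQCRFS1P1 (3.08), GPX1P1 (3.12), HNRNPA1P7 (4.24) and NPM1P27 (4.59), were seen with V5 and EIF1P3 (3.61 and 3.59 at 2 loci) with FLAG. The pseudogenes ENSG00000228477 (4.52 and 5.49) and ENSG00000227615 (4.46, FLAG only) shared 25-mers with RPS2 and RPS12 mRNA.

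The copy number of the sequences was measured over all members of at least 25 nt. Every 25-mer occurred once in the genome in 86 of 249 such members (34.5%), against 84.6% of 15386 peaks on protein-coding exons. No 25-mer was unique in 56 members (22.5%) and in 1.75% of the peaks on protein-coding exons. Pseudogene exons had the lowest share of fully unique peaks (10.0%), followed by introns of coding genes (27.4%) and small RNA exons (32.0%). How the deposited processing treated reads with several equal matches is not given in the sources used here.

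**Figure D5:**
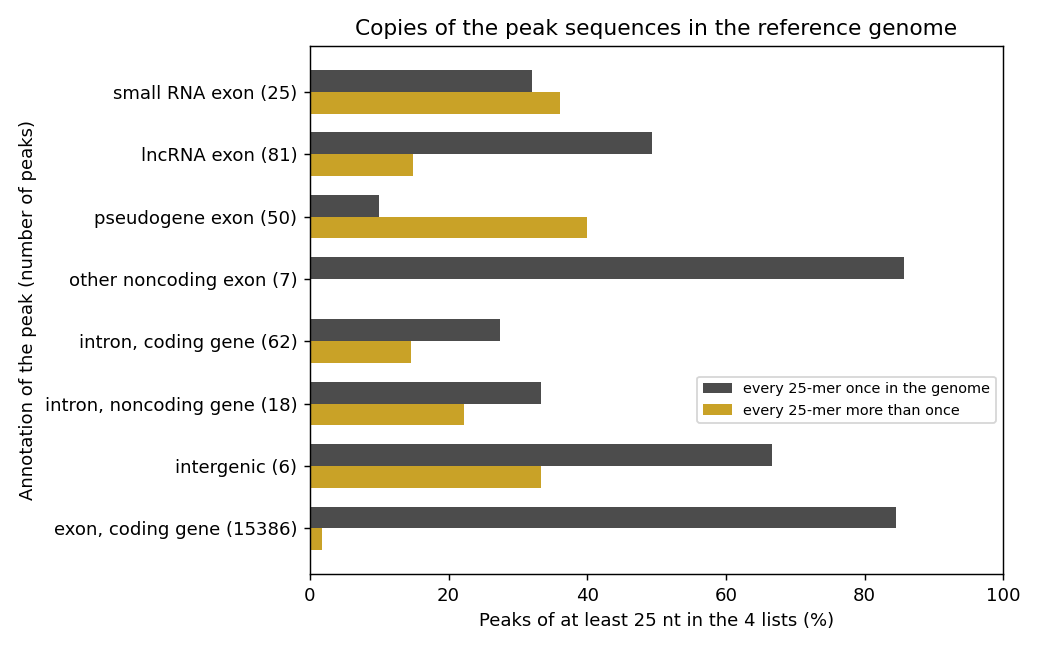
Share of peaks of at least 25 nt (x axis, percent) in which every 25-mer occurs once in the reference genome (dark) or more than once (yellow), by annotation class, with the number of peaks in parentheses. Peaks on exons of coding genes, at the bottom, were fully unique in 84.6%, and pseudogene peaks in 10.0%.

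Exons of 28 lncRNA genes held 46 loci, and 19 of these lay in 6 of the small nucleolar RNA host genes (SNHG), whose introns encode snoRNAs and whose spliced exons reach the cytoplasm. No SNHG locus shared a stretch with a RefSeq snoRNA gene. However, a peak touching an annotated snoRNA exon on its strand was classed as small RNA first. The SNHG6 locus of 16 nt was also too short for this search. SNHG16 had the most loci of any member gene (6), of which the one at chr17:76558945-76558980 was in all 4 lists. It had 4.57 over V5 input, 3.33 over FLAG input, 3.03 over V5 empty vector and 3.29 over FLAG empty vector. Another SNHG16 locus at chr17:76564888-76565032 had 4.20 and 3.52 over input and 3.40 over the FLAG empty vector, and the other 4 did not exceed 3.53. At 3 of those 4, no 25-mer inside a deposited peak was unique in the genome. The fourth locus in all lists, on the gene ENSG00000278948 (of unsettled type in GENCODE) at chr22:37943867-37944156, had 4.24, 4.04, 3.27 and 3.37 in the same order. Capitals in the SNHG16 locus at chr17:76558945-76558980 mark a GU followed by 5 paired bases, the structure described further on.
SNHG16: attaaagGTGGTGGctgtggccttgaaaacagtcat

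SNHG32 had 5 loci, all without an empty vector peak, between 3.04 and 4.34 with V5, and 2 of them also with FLAG (3.66 and 3.30). SNHG7 had 3 loci with V5 empty vector peaks of 3.07 to 3.23 and none with FLAG. SNHG5 had 1 locus in both input lists (3.61 and 3.86) that was also over the FLAG empty vector (3.64), and another with V5 only (3.10). SNHG29 reached 3.96 and SNHG6 had 3.11, both with V5 only over input. In all, 17 of the 19 SNHG loci had a V5 input peak and 7 a FLAG input peak, 6 had both, and 10 had a peak over an empty vector. Of all 155 loci, 104 had a V5 input peak, 108 a FLAG input peak, 62 both and 42 an empty vector peak. Of the lncRNAs looked up by name, NORAD (3.85 and 3.09, V5 only) and EPB41L4A-AS1 (3.29 and 3.04, V5 empty vector only) also had peaks. Of the 64 annotated lncRNA and small RNA genes looked up by name 54 had no member peak, among them MALAT1, NEAT1, GAS5, ZFAS1 and DANCR.

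Outside the SNHG genes, lncRNA loci were among the highest over the FLAG empty vector. FIRRE, an X-linked lncRNA gene that binds chromatin, had 3 loci, and the one at chrX:131755603-131755708 had 4.80 over the FLAG empty vector and 3.30 over the FLAG input, with no V5 peak. It was the highest member of that list. An intron of LINC01581 at chr15:94104678-94104702 had 4.39 and 5.02 over input and 4.67 over the FLAG empty vector. LINC02693 had 2 loci in both input lists (4.63 and 3.59, and 4.43 and 4.88), of which 1 was over the V5 empty vector at 4.24 and the other over the FLAG empty vector at 3.66.

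Members were shorter than other peaks, with a median of 34 nt against 74 nt on protein-coding exons, and had a like GC content (medians 57.9% and 59.6%). The structure looked for was GU directly followed by 5 bases, with a pairing probability of the U below 0.7 and of each of the 5 above 0.5, folded in windows of 70 nt with 50 nt of flank. It was present in 112 of 395 members (28.4%), in 40.1% of all peaks and in 40.4% of peaks on protein-coding exons. By length, it was in 11.6% of members of up to 24 nt and in 6.11% of such peaks on protein-coding exons, and in 28.8% and 22.6% at 25 to 49 nt. At 50 to 99 nt the shares were 40.6% and 44.1%, and from 100 nt upward 54.5% and 63.4%. The bins, from short to long, held 146, 104, 101 and 44 members. Members were above the coding peaks in the shorter bins and below them in the longer bins. Pieces of one locus count separately here, and these differences were not tested. By class, 46 of 107 peaks on lncRNA exons held it, 25 of 115 in introns of coding genes and 9 of 51 in introns of noncoding genes.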

How the data were processed

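Peaks were taken from 4 lists the authors deposited, 1 per comparison of an IP with its control, with both replicates in 1 value. Per the labels and methods, reads were processed with UMI-tools 1.0.0, cutadapt 1.14, STAR 2.4.0i and SAMtools 1.6 on GRCh38. Each deposited peak has a log2 enrichment of the IP over its control and a -log10 p, both as the authors computed them, and depth per library is not in these lists. The methods name the eCLIP pipeline of the Yeo laboratory, kept peaks reproducible between replicates by IDR (irreproducible discovery rate), and refer to earlier work for the peak calling. The handling of reads with several matches is not given in the sources used here.

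With GENCODE 44, a peak took the first class that it touched by 1 nt or more on its own strand, in the order small RNA, lncRNA, pseudogene and other noncoding exon, intron of a coding gene, other intron, intergenic. A locus takes the highest value of its peaks in a list. RefSeq genes (GRCh38.p14) gave tRNA and rRNA positions, and all 1562 RefSeq miRNA hairpins tested matched the FASTA at their coordinates. Folding used ViennaRNA 2.7.2, and the code was tested on simulated data. No test was run, since peaks are not replicates. Shares and medians are given beside those of all peaks, and 95% intervals are Wilson intervals.

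A search for tRNA ends, shared stretches and mRNA copies was added after the values were seen. Named are loci in all 4 lists, the 10 highest by mean over input, the 3 highest of each list, the 5 genes with most loci, all small RNA genes with a peak and the listed noncoding RNAs with a peak. Genes named beyond this rule (hosts of tRNA, rRNA or 7SL sequence, copies of mRNA, and further introns) were chosen after their values were seen. A few items are not reported here. The members and lists were chosen with earlier results of these data known.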

Additional observations from a re-analysis of the deposited data

How the results depend on the processing

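Of 73 recomputed values for 10 results, 57 stayed within 1.5 times the value reported (counts) or within its 95% interval (shares and medians). With a log2 of at least 4, member peaks fell to 209, loci to 83, loci in 4 lists to 1 and small RNA peaks to 22. The noncoding exon share was then 45%, the empty vector overlap 6.12%, the structure share 22.5% and the median over input 5.14. With exons of canonical transcripts only, the intronic share was 48%, the noncoding exon share 41.1%, loci in 4 lists 10, the structure share 34.5% and the median 4.18. A -log10 p of at least 5 gave a median of 4.57. Merging touching peaks first gave a structure share of 41% and stricter pairing (0.5 and 0.7) 5.82%, so this share depends on merging and on the threshold. Beyond the smaller number of peaks under the stricter thresholds, the cause of these shifts was not tested. No paired analysis was possible because each list has 1 value per peak for both replicates. For the same reason no replicate could be left out.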

Other observations

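The 2 short SIN3B loci lay in an intron on chromosome 19. Both stood at the -log10 p ceiling of 400 and had no peak in the other 3 lists. They were the highest members seen with 1 tag only. An intron of RHOT1 had FLAG peaks over input (4.09) and over the empty vector (3.25), in sequence of which 22.8% of the 25-mers were unique in the genome. Of the 3 intergenic loci off tRNA genes, 1 lay 1679 nt beyond the 3′ end of SDHC (3.29 with V5), and the others lay 22 and 50 nt from the nearest exon of a coding gene on their strand (3.35 with FLAG and 3.24 with V5). These values were picked after they were seen.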
